A study of Bos taurus and Bos grunniens and Bubalus bubalis with 15 samples.

Results

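Chaperones and co-chaperones, the proteins that fold other proteins and keep damaged ones from clumping, were followed in the back muscle of cattle, yak and buffalo. The members are the genes whose single symbol in the array's annotation belongs to the heat shock proteins (HSPA, HSPB, HSPD, HSPE, HSPH and HSP90), the DNAJ proteins, the CCT chaperonin, the BAG proteins or the FKBP peptidyl-prolyl isomerases, together with CRYAB. The rule took 104 probe sets for 71 genes, of 9155 genes with 1 symbol, and of several probe sets for a gene the one brightest over the 15 arrays stands for it. Of the 71 members, 66 were bright enough to test. The other 5, BAG4, DNAJC6, DNAJC22, FKBP10 and HSPBAP1, were not tested.

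Back muscle (longissimus dorsi) was taken at slaughter from animals of 36 months. There were 5 groups of 3 animals, each on 1 array: intact males, castrated males and females of Qinchuan cattle, a Chinese beef breed, then Qinghai yak and Guangxi buffalo (water buffalo). The cattle were born within 30 days of each other and shared rearing and a similar genetic background. No age at castration and no sex of the yak and buffalo is given in the sources used here, so between species, sex, herd and place cannot be told apart from species. Values are linear hybridisation intensities, and no detection calls come with them. Values of a group are given in the order of animals 1, 2 and 3, and mean ± SD has n = 3 arrays. Differences are given on the log2 scale with their standard error (SE) and limma's Benjamini-Hochberg adjusted p over all 14409 probe sets tested, two-sided, with a threshold of 0.05. A gene rose or fell where it passed this threshold with the group named first above or below the other.

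Chaperones work as a relay. HSP70 proteins bind exposed stretches of unfolded chains, DNAJ proteins bring the clients and start the ATP hydrolysis that locks them in, and BAG proteins and HSP110 release them by exchanging the nucleotide. HSP90 finishes the folding of kinases and steroid receptors with helpers such as FKBP4 and FKBP5, the CCT ring folds actin and tubulin, and small heat shock proteins hold unfolding proteins without ATP. Muscle is rich in small heat shock proteins and in BAG3, which guard and clear the load-bearing proteins of the Z disc, and the endoplasmic reticulum (ER) has its own set, HSPA5, HSP90B1 and several FKBPs, that folds secreted proteins such as collagen.

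Some arrays stood apart. Buffalo 1 was the lowest of the 3 buffalo for 53 of the 66 members (80.3%), against 37.5% of all probe sets tested. Intact male 1 was the highest of its group for 39 members (59.1%), against 41.1% of all. Yak 3 was the lowest yak for 38 members (57.6%), against 37.7% of all. Intact male 3 was the lowest of its group for 35 (53.0%), against 35.6% of all. The median member, relative to its cattle mean on the log2 scale, lay at -0.40 in buffalo 1, 0.06 in buffalo 2 and 0.10 in buffalo 3, and at 0.23 in intact male 1 against -0.08 and -0.10 in intact males 2 and 3. Actin probe sets at the 3' and 5' ends, whose ratio grows as RNA degrades, gave ratios of 1.17 to 1.48 for the cattle, 1.49 to 1.93 for yak and 1.42 to 1.73 for buffalo. The highest intensity of any probe set on an array was 19029 to 20615. Among the members HSPB1 came nearest to this level, at 16038 in buffalo 3, and may have limited room to rise there. CRYAB reached 12511 at most. The markers of the labelled tissue were bright in every group: the summed intensity of 8 skeletal muscle genes was 81503 to 117332. The low end was buffalo, at 81503 to 90649, against 89502 to 117332 in cattle and 102667 to 110022 in yak. In buffalo against cattle 5 of these 8 and 4 of 7 fast fibre markers fell, against 28.4% of all probe sets tested. The part of these markers in the buffalo values below was not tested. The array holds bovine probes, and how well yak and buffalo transcripts bind them was not tested. In whole muscle, fewer cells of a type and less RNA per cell cannot be told apart.

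The ratio of the highest to the lowest of the 5 group means had a median of 1.75 over the 66 tested members and reached 2-fold in 27. Among the 3 cattle groups alone its median was 1.32, and it reached 2-fold in 7. The extremes were DNAJB1, 12.1-fold from yak to buffalo, FKBP7, 7.93-fold from intact males to buffalo, and FKBP11, 4.33-fold from intact males to yak.

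**Figure D1:**
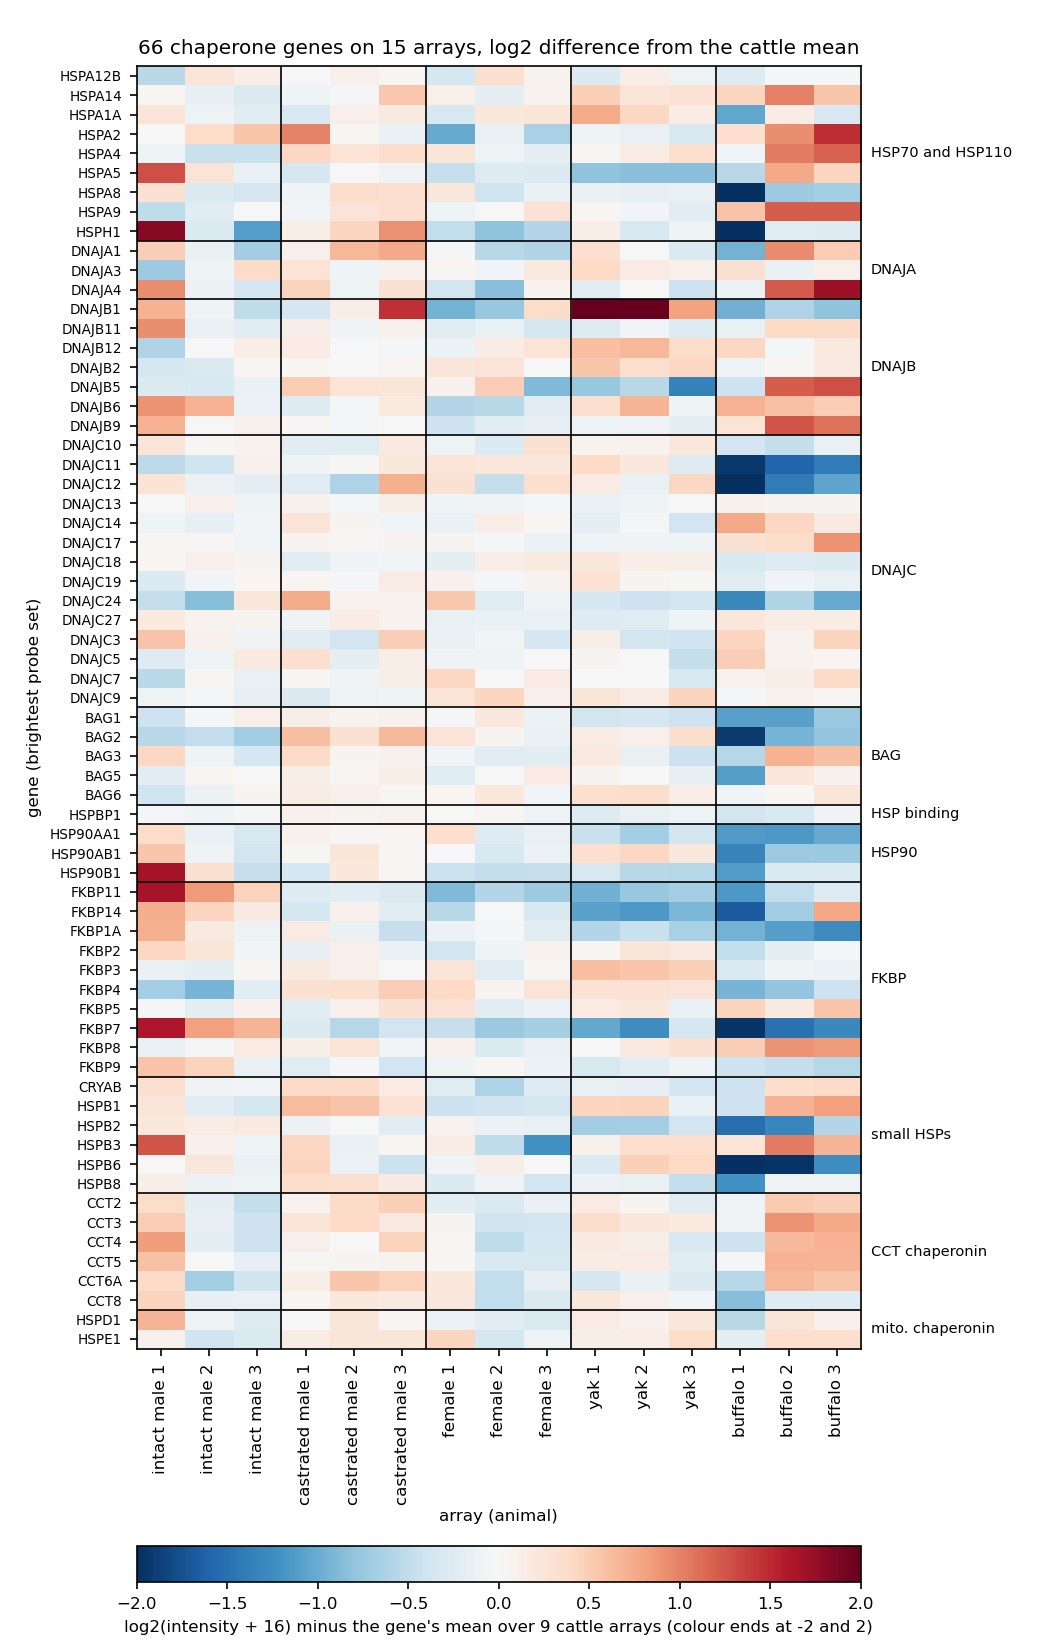
Each row is a tested member, grouped by family, and each column an array; colour gives log2(intensity + 16) minus the gene's mean over the 9 cattle arrays, red for higher and blue for lower. FKBP7 and FKBP11 are red in the 3 intact males, DNAJB1 is dark red in yak 1 and 2, and the column of buffalo 1 is bluer than those of buffalo 2 and 3.

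The submitters set the 3 cattle groups against each other to ask which genes differ with sex and castration. In castrated against intact males 4 of the 66 members passed, or 6.06%, against 1.46% of all probe sets tested. BAG2 and FKBP4 rose in castrated males (0.625% of all probe sets did), and FKBP7 and FKBP11 fell (0.84%). The members' median log2 difference was 0.11, with 43 of 66 above 0, against 50.0% of all probe sets tested. When castrated male 1 or castrated male 3 was left out all 4 missed the threshold, while the log2 differences stayed near those reported: 1.06 and 1.03 for BAG2, 1.02 and 0.92 for FKBP4, -1.52 and -1.46 for FKBP7, and -1.24 and -1.23 for FKBP11. Of the calls 1 remained without castrated male 2 or intact male 2, and 6 members passed without intact male 3.

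Females against intact males gave 4 members that passed, again BAG2 and FKBP4 higher and FKBP7 and FKBP11 lower in females, or 6.06% against 5.5% of all probe sets tested (2.12% higher and 3.37% lower). Both contrasts use the same 3 intact males, so they are not independent. The members' median log2 difference was -0.09, with 28 of 66 above 0, against 51.2% of all. FKBP7 was the 1 call left without female 3, and FKBP7 and FKBP11 were the 2 left without female 1, female 2, intact male 1 or intact male 2. Without intact male 3, 11 members passed.

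Females against castrated males gave 0 members that passed limma's test, beside 0.0208% of all probe sets tested. At an unadjusted p under 0.05 there were 8 of 66 members (12.1%), against 7.55% of all probe sets, and 7 of the 66 (10.6%) were lower in females, against 3.57% of all. A fit with array weights called 1 member. The median member stood at -0.17, with 53 of 66 below 0, beside 0.00 over all probe sets tested. The 3 members with the smallest p were the small heat shock proteins HSPB1, HSPB8 and CRYAB. These 3 were lower in all 3 females than in any castrated male.

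Yak against cattle gave 14 members that passed, or 21.2% against 29.1% of all probe sets tested: 5 were higher (13.2% of all were) and 9 lower (15.9%). FKBP3, DNAJB1, DNAJB2, DNAJB12 and DNAJC9 rose in yak. FKBP7, FKBP11, FKBP14, FKBP1A, HSPA5, HSP90AA1, HSPB2, BAG1 and DNAJC27 fell. The median member stood at -0.02, the same as the median of all probe sets tested. The count was 1, FKBP3, without yak 1, 6 without yak 2 and 9 without yak 3. It was 5 with the castrated males alone as the cattle and 3 with the females alone, where FKBP3 and DNAJB1 were the 2 of the 14 that still passed.

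Buffalo against cattle gave 31 members that passed, or 47.0% against 51.4% of all probe sets tested: 13 were higher (23% of all were) and 18 lower (28.4%). With quantile normalisation the split was 22 higher and 16 lower, so the balance of directions depends on the scaling. Without buffalo 1 it was 17 higher and 15 lower. In buffalo, HSP90AA1, HSP90AB1, HSPA8, HSPB6, HSPB2, DNAJC11, BAG1 and BAG2 fell, while HSPA9, HSPA4, DNAJB9 and FKBP8 rose.

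Buffalo against yak gave 28 members that passed, or 42.4% against 42.2% of all probe sets tested: 10 were higher (19.5% of all were) and 18 lower (22.7%). With quantile normalisation the split was 16 and 11, and without buffalo 1 it was 16 and 13. In the 3 species contrasts the members' share was thus below or level with that of the probe sets at large. The 3 contrasts share arrays pairwise, so values for a member are given side by side below.

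**Figure D2:**
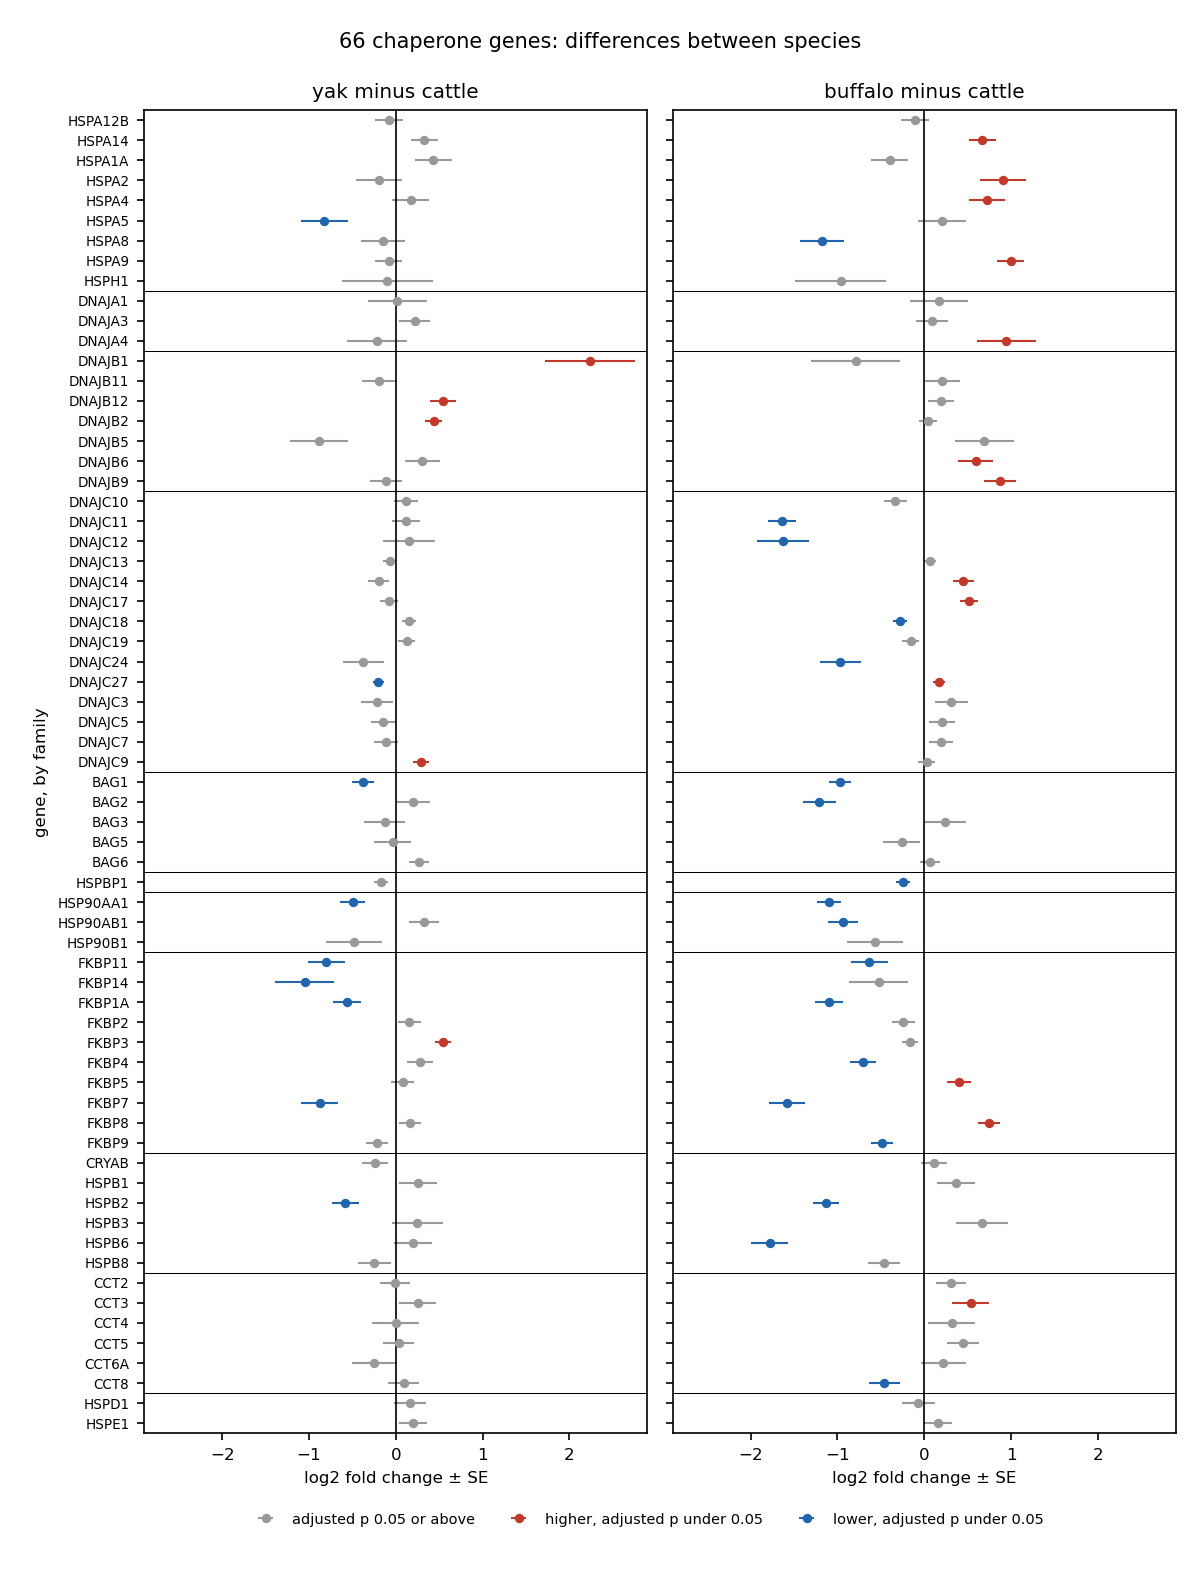
Each point is the log2 difference of a tested member, with bars of 1 SE, in yak minus cattle (left) and buffalo minus cattle (right), on the same axis from -2.9 to 2.9; red and blue mark members that passed as higher and lower, and grey those that did not. In yak 14 members are coloured, with DNAJB1 farthest right at 2.24, and in buffalo 31 are, with HSPB6 farthest left at -1.78.

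HSP70 proteins and HSP110 were the first family by role. In cattle 0 of 9 tested members passed in any contrast, and in yak 1 did. In buffalo 4 rose and 1 fell against cattle. Beside this and the next families' counts, 23% of all probe sets tested rose and 28.4% fell in buffalo against cattle. In yak 13.2% rose and 15.9% fell. Against intact males 0.625% rose and 0.84% fell in castrated males, and 2.12% rose and 3.37% fell in females. HSPA8, the constitutive HSP70 of the cytosol, was 4514 at the lowest, 5598 at the median and 7603 at the highest among the 9 cattle. In buffalo it was 1353, 3577 and 3684, below every cattle array (log2 difference -1.18 with SE 0.26, adjusted p = 0.00174). Without buffalo 1 the value was -0.71 (SE 0.18, adjusted p = 0.00579). In yak HSPA8 was 5436, 5269 and 5335, inside the cattle range.

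HSPA9, the mitochondrial HSP70 that pulls proteins through the inner membrane, went the other way. It was 2036, 3195 and 3184 in buffalo and 958 to 1723 in cattle, so all 3 buffalo lay above every cattle array (log2 difference 1.00 with SE 0.16, adjusted p = 0.000162). In yak HSPA9 was 1407, 1319 and 1163, within the cattle range, and buffalo against yak gave 1.08 (SE 0.19, adjusted p = 0.000645). HSPA4, an HSP110-like exchange factor, was 599, 1289 and 1436 in buffalo and 449.9 to 829.8 in cattle (log2 difference 0.72 with SE 0.21, adjusted p = 0.0111). Buffalo 2 and 3 were above all cattle and buffalo 1 was not. The HSPA4 call was lost without buffalo 2 or buffalo 3, and with the castrated males alone as the cattle.

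HSPA2, a testis-enriched HSP70 also found in other tissues, rose in buffalo by 0.91 (SE 0.26) on the log2 scale, at 377, 576 and 851. Its cattle values ran from 139 to 609 and overlapped. The HSPA2 call was lost without buffalo 3, and with the intact or the castrated males alone as the cattle. HSPA14, a ribosome-bound HSP70, rose by 0.67 (SE 0.16), but its second probe set gave 0.02 (SE 0.09, adjusted p = 0.839). HSPA1A, the stress-inducible HSP70 whose probes may also read its near-identical copy HSPA1B, was 8354, 6606 and 5506 in yak and 2422, 5516 and 3985 in buffalo, and ran from 3965 to 5929.8 in cattle. Neither species passed against cattle, with 0.43 (SE 0.22, adjusted p = 0.15) in yak and -0.40 (SE 0.22, adjusted p = 0.139) in buffalo. Buffalo against yak passed at -0.83 (SE 0.27, adjusted p = 0.0223), although buffalo 2 overlapped yak 3. Without yak 1, yak 2 or buffalo 1 that call was lost. In the same contrast 2 of its other tested probe sets had the same sign and 1 the opposite, and each missed the threshold. The opposite one, at 474, 515 and 729 in yak, passed as lower in yak against cattle (log2 difference -0.79, adjusted p = 0.0129), so the sign of HSPA1A in yak depends on the probe set.

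HSPA5, the HSP70 of the ER, was the 1 member of the family that passed in yak. It was 1133, 1108 and 1108, below every cattle array, which ran from 1437 to 4878 (log2 difference -0.82 with SE 0.27, adjusted p = 0.0369). The call was lost under 10 of 26 alternatives. Among these were leaving out any 1 of the 3 yak, and the castrated males or the females alone as the cattle. Over all 26 the values ran from -1.29 to -0.49. In buffalo HSPA5 was 1339, 3354 and 2666 and did not pass against cattle (0.20 with SE 0.27). Intact male 1, at 4878, was the highest array, while intact males 2 and 3 had 2385 and 1802. HSPH1, the main HSP110, was 3260.4, 744 and 416 in intact males, 999, 1228 and 1725 in castrated males, 640.0, 513 and 599 in females, 1003, 723 and 850.4 in yak and 160.3, 771 and 755 in buffalo. Intact males 1 and 3 had the highest and the lowest of the cattle values, and HSPH1 passed in no contrast. HSPA12B, a distant relative found in endothelium, also passed in none.

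DNAJ proteins, the partners that feed clients to HSP70, held the member with the largest difference. Of 7 tested DNAJB members, 3 rose in yak and 0 fell. DNAJB1, the main stress-inducible partner, was 5403, 1753 and 685 in yak. The cattle had 193 at the lowest, 363 at the median and 1089.5 at the highest, and buffalo had 191, 245 and 214. Yak 1 and 2 were above every other array, and yak 3 was below castrated male 3. The log2 difference from cattle was 2.24 (SE 0.52, adjusted p = 0.00623), and -3.03 (SE 0.63, adjusted p = 0.0019) for buffalo against yak. Without yak 1 the value was 1.47 (SE 0.48, adjusted p = 0.0537). A second probe set of DNAJB1 gave 2457, 742 and 383 in yak, with a log2 difference of 1.47 (SE 0.44, adjusted p = 0.0244). In buffalo this probe set gave 116, 116 and 93.2 and passed as lower against cattle (log2 difference -1.41, adjusted p = 0.0169). The brightest did not pass there (-0.79, adjusted p = 0.216).

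The actin 3' to 5' ratio was 1.93 in yak 1, against 1.51 and 1.49 in yak 2 and 3. The GAPDH ratio was 1.20 in yak 1, against 1.24 and 1.26 in yak 2 and 3. The part of RNA quality in the DNAJB1 result was not tested. DNAJB2, a neuronal and muscle partner that passes clients to the proteasome, rose in yak: 313, 264 and 282, above the 159 to 252 of cattle (log2 difference 0.44 with SE 0.10, adjusted p = 0.00667). DNAJB12, a membrane partner in the ER, was 486, 509 and 414 in yak against 203 to 386 in cattle (log2 difference 0.54 with SE 0.15, adjusted p = 0.0178). Its other 2 tested probe sets gave 0.16 and -0.03 and did not pass. The DNAJB12 call was lost with the castrated males or the females alone as the cattle. DNAJB5, an HSP70 partner of muscle, did not pass in yak against cattle (-0.89 with SE 0.34) but rose in buffalo against yak (1.58 with SE 0.41, adjusted p = 0.0077), at 637, 2002 and 2119.8 in buffalo and 502, 582 and 325 in yak.

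In buffalo against cattle 2 DNAJB members rose. DNAJB9, an ER partner that holds HSPA5 near the stress sensor IRE1, was 1087, 2165 and 1919.7, with buffalo 2 and 3 above the 668 to 1449.9 of cattle and buffalo 1 within it (log2 difference 0.88 with SE 0.19, adjusted p = 0.00147). DNAJB6, which guards the Z disc and whose mutations cause a limb-girdle muscular dystrophy, was 491, 455 and 430.3 (log2 difference 0.59 with SE 0.20, adjusted p = 0.0242). Its cattle values ran from 193 to 567, with intact males 1 and 2 above all buffalo. Against the intact males alone DNAJB6 was 0.10 (SE 0.25, adjusted p = 0.765), and the call was lost without any 1 of the 3 buffalo. Of the DNAJA members, the cytosolic DNAJA4 rose in buffalo (log2 difference 0.94 with SE 0.34, adjusted p = 0.0329), at 759, 1953 and 2725, where buffalo 1 lay inside the 452 to 1581 of cattle. The DNAJA4 call was lost under 8 of 26 alternatives. Among these were leaving out buffalo 2 or buffalo 3, and the intact or the castrated males alone as the cattle. DNAJA1, a general cytosolic partner, and DNAJA3, its mitochondrial relative, passed in no contrast.

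DNAJC proteins carry the J domain in otherwise unrelated chains. Of 14 tested, 3 rose and 4 fell in buffalo against cattle, and 1 rose and 1 fell in yak. Of all probe sets tested, 23% rose and 28.4% fell in buffalo, and 13.2% rose and 15.9% fell in yak. DNAJC11, a mitochondrial membrane protein tied to the organisation of the cristae, had the smallest adjusted p of all members in buffalo against cattle. It was 96.3, 126 and 146 in buffalo, below every cattle array, which had 282 at the lowest, 441 at the median and 496 at the highest (log2 difference -1.64 with SE 0.16, adjusted p = 2.76e-06). In yak it was 549.9, 481 and 343, and the 3 buffalo were below all yak too (log2 difference -1.76 with SE 0.20, adjusted p = 1.5e-05).

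DNAJC12, a partner that binds aromatic amino acid hydroxylases, showed the same pattern in buffalo, 40.6, 98.5 and 129 against 182 to 479 in cattle (log2 difference -1.63 with SE 0.30, adjusted p = 0.000557). DNAJC24, which serves the diphthamide pathway, fell with a log2 difference of -0.97 (SE 0.23, adjusted p = 0.00365), and of its 2 other tested probe sets 1 passed as lower and 1 did not pass. DNAJC17, a splicing-related member, and DNAJC14, an ER membrane member, rose by 0.52 (SE 0.10) and 0.45 (SE 0.12). DNAJC10, an ER disulphide reductase, fell in buffalo against yak (log2 difference -0.45 with SE 0.17, adjusted p = 0.041), at 287, 268 and 342 against 398, 398 and 443, and the call was lost under 7 of 17 alternatives. Its 2 other tested probe sets fell further in that contrast, with -1.20 (adjusted p = 0.000528) and -0.69 (adjusted p = 0.00166). These also passed as lower against cattle, with -0.79 (adjusted p = 0.00174) and -0.59 (adjusted p = 0.000899), where the brightest had -0.33 (adjusted p = 0.0522). DNAJC18 fell with a log2 difference of -0.28 (SE 0.08) in buffalo. DNAJC27, a small GTPase with a J domain, fell in yak with a log2 difference of -0.20 (SE 0.07) and rose in buffalo by 0.17 (SE 0.07), calls that were lost under 16 and 18 of 25 alternatives. DNAJC9, a histone chaperone partner, rose in yak by 0.29 (SE 0.09), but its yak values of 316, 299 and 365 overlapped the 319, 359 and 283 of females, and against the females alone the difference was 0.03 (SE 0.12, adjusted p = 0.901). The brightest members of the family, DNAJC19 of the mitochondrial import motor and DNAJC7, which bridges HSP70 and HSP90, passed in no contrast.

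BAG proteins release clients from HSP70. Of 5 tested, 1 rose in castrated males and in females, 1 fell in yak and 2 fell in buffalo. BAG2, which also restrains the ubiquitin ligase STUB1, separated the cattle groups. It was 1516, 1575 and 1364 in intact males, 3385, 2753 and 3489 in castrated males and 2656, 2321 and 2023 in females. All intact males were below all females, and these below all castrated males. The change was 1.10 (SE 0.15, adjusted p = 0.0122) in castrated and 0.64 (SE 0.15, adjusted p = 0.0409) in female against intact males. A second probe set of BAG2 gave 1.12 (SE 0.24, adjusted p = 0.0585) in castrated males and 0.37 (SE 0.24, adjusted p = 0.341) in females.

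Across species BAG2 was 2462, 2395 and 2848 in yak, inside the cattle range, and 577, 1163 and 1281 in buffalo, below all cattle (log2 difference -1.21 with SE 0.19, adjusted p = 0.000158). Without buffalo 1 the buffalo value was -0.86 (SE 0.13, adjusted p = 0.000192). The second probe set of BAG2 also passed as lower in buffalo against cattle (-0.80, adjusted p = 0.00338). In yak against cattle it passed as higher (0.75, adjusted p = 0.0105), where the brightest did not pass (0.20, adjusted p = 0.449). The yak result for BAG2 thus depends on the probe set. BAG1, which couples HSP70 to the proteasome, was 569, 573 and 732 in buffalo and 946, 972 and 918 in yak, and ran from 918 to 1423 in cattle. Both species were lower, with -0.97 (SE 0.12, adjusted p = 2.65e-05) in buffalo and -0.37 (SE 0.12, adjusted p = 0.0355) in yak, where intact male 1, at 918, was the 1 cattle array at the level of the yak. BAG3, the muscle scaffold of chaperone-assisted autophagy, was 3181 ± 890.2 in intact males, 3549 ± 466 in castrated males, 2778 ± 189 in females, 2900.2 ± 635 in yak and 3965 ± 1632 in buffalo. It passed in no contrast, and neither did BAG5 or BAG6 by their brightest probe sets. A second, dimmer probe set of BAG5 passed as lower in buffalo, with -0.56 (adjusted p = 0.00239) against cattle and -0.42 (adjusted p = 0.0451) against yak. HSPBP1, another exchange factor, fell in buffalo with a log2 difference of -0.25 (SE 0.08).

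HSP90 and its isomerases come next in the relay. Of the 3 HSP90 members 1 fell in yak and 2 in buffalo, and 0 passed within cattle. HSP90AA1, the inducible cytosolic HSP90, was 2299.9, 2268 and 2485 in buffalo, 3681, 3135 and 3914 in yak and 4044 to 6489.8 in cattle. The 3 buffalo were below all yak, and all yak below all cattle. The change against cattle was -1.09 (SE 0.14, adjusted p = 2.91e-05) in buffalo and -0.50 (SE 0.14, adjusted p = 0.0176) in yak. In yak this rests on 1 probe set: the second gave 3799.6, 3663 and 3492, with 0.73 (SE 0.28, adjusted p = 0.0667), and the mean of both reversed the sign to 0.11. Without yak 1 or yak 2 the adjusted p was 0.0568 or 0.11. In buffalo the second probe set gave -0.21 (SE 0.28, adjusted p = 0.557).

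HSP90AB1, the constitutive cytosolic form, was 1294, 1992 and 1954 in buffalo, below every cattle array (2560.1 to 4847) and every yak (4155, 4399 and 3817). It fell against cattle with a log2 difference of -0.93 (SE 0.17, adjusted p = 0.000506) and did not pass in yak (0.32 with SE 0.17). Without buffalo 1 the buffalo value was -0.73 (SE 0.18, adjusted p = 0.00454). HSP90B1, the ER form, was 3057, 1173 and 685 in intact males. Intact male 1 was far above every other array, and the next was intact male 2. The castrated males had 739, 1098 and 968, the females 700.1, 676 and 684, and HSP90B1 passed in no contrast. The macrophage marker SPP1 stood in the same order in the intact males, 7338, 2553 and 1246, and its part in these values was not tested.

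**Figure D3:**
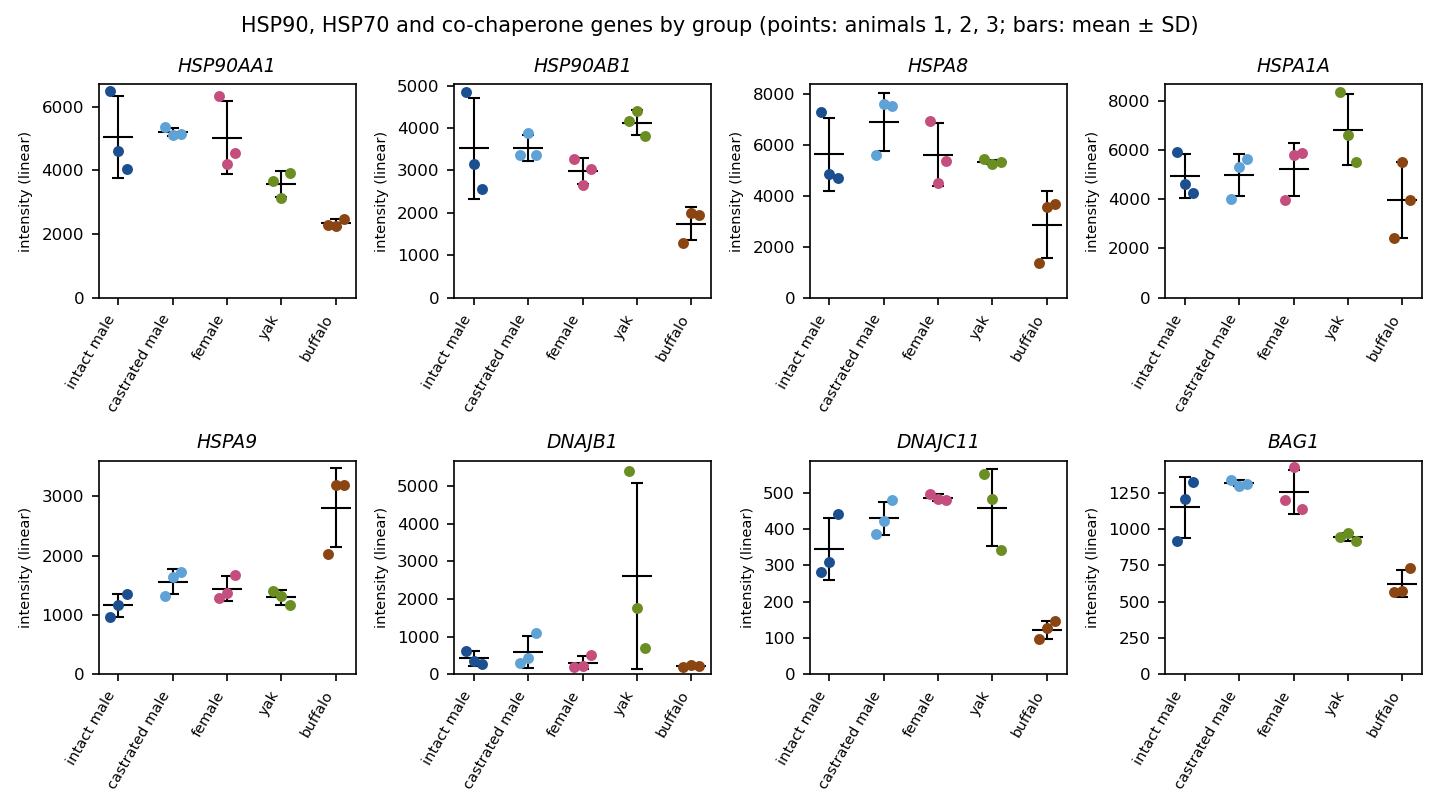
Linear intensity of 8 members in the 5 groups, with points for animals 1, 2 and 3 from left to right, a horizontal line at the group mean and bars of ± 1 SD (n = 3). HSP90AA1, HSP90AB1, HSPA8, DNAJC11 and BAG1 lie lowest in buffalo and HSPA9 highest, and the DNAJB1 values of yak run from 685 to 5403.

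FKBP4, the isomerase that HSP90 uses to mature steroid receptors, was 581, 486 and 809.9 in intact males, 1164, 1175 and 1337 in castrated males and 1251, 980.2 and 1137 in females. All intact males lay below all other cattle. The change was 0.98 (SE 0.20, adjusted p = 0.0472) in castrated and 0.85 (SE 0.20, adjusted p = 0.0405) in female against intact males. In yak FKBP4 was 1157, 1159 and 1131, inside the cattle range. In buffalo it was 488, 540.3 and 707, overlapping the intact males and below the other cattle (log2 difference -0.71 with SE 0.15, adjusted p = 0.00143). Against the intact males alone it was -0.10 (SE 0.18, adjusted p = 0.692). Beside it, FKBP5, another HSP90 helper that is itself induced by glucocorticoids and androgens, ran from 82.2 to 126 in cattle and passed in no cattle contrast. It rose in buffalo by 0.40 (SE 0.13, adjusted p = 0.0225), with values of 141, 116 and 153 that overlapped cattle.

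Among the isomerases, 2 of the ER fell in both castrated males and females. Of 10 tested FKBP members, 1 rose and 2 fell in each of these contrasts, 1 rose and 4 fell in yak, and 2 rose and 5 fell in buffalo. FKBP7, a calcium-binding FKBP of the ER, was 594, 334 and 302 in intact males, 148, 118 and 136 in castrated males and 128, 103 and 109 in females. All intact males were above all other cattle. The change was -1.45 (SE 0.22, adjusted p = 0.0207) in castrated and -1.66 (SE 0.22, adjusted p = 0.0106) in female against intact males. FKBP11, an ER isomerase of secretory cells, was 411, 229 and 172 in intact males, 97.4, 101 and 95.0 in castrated males and 57.8, 74.9 and 66.6 in females. Its changes were -1.25 (SE 0.25, adjusted p = 0.0472) in castrated and -1.72 (SE 0.25, adjusted p = 0.0128) in female against intact males. Here the 3 groups did not overlap, in the order intact males, castrated males, females.

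The other ER isomerases did not pass within cattle. FKBP14, whose loss causes a form of Ehlers-Danlos syndrome, was 278, 222 and 185 in intact males against 124, 172 and 137 in castrated males and 105, 161 and 128 in females, above both groups on every array (-0.60 with SE 0.19 in castrated males and -0.73 with SE 0.19 in females). FKBP10, a collagen chaperone and an osteogenesis imperfecta gene, was too dim to test. It had 186, 97.0 and 85.9 in intact males against 58.0, 50.7 and 57.8 in castrated males and 55.5, 49.1 and 48.1 in females, again without overlap. FKBP9 (-0.50 with SE 0.18 in castrated males and -0.34 with SE 0.18 in females) and FKBP2 (-0.27 with SE 0.17 and -0.33 with SE 0.17 in the same order) had intact males that overlapped the other groups.

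FKBP7 and FKBP11 were highest in the group whose connective tissue and macrophage markers were highest too. The summed intensity of 13 fibroblast and matrix genes lay between 35884 and 53828 in intact males, 13184 and 14744 in castrated males, and 10453 and 12728 in females, and was 5446 to 6610 in yak and 4634 to 7938 in buffalo. Of the 12 tested, 8 fell in castrated and 11 in female against intact males, beside 0.84% and 3.37% of all probe sets tested. COL1A1 was 5244, 3598 and 3100.4 in intact males, and PI16, a fibroblast marker, 693, 819 and 657 against 82.4, 91.1 and 102 in castrated males. For 14 macrophage genes the sum ran between 8032 and 42051 in intact males, while castrated males had 2672 to 4240 and females 1425 to 2555. Of the 14, 2 fell in castrated and 10 in female against intact males, beside the same shares of all probe sets. The table has no detection calls, so no marker can be set at 0. The part of these cells in the FKBP result was not tested.

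SERPINH1, the collagen-specific ER chaperone, was not among the members but followed the same order, 807, 512 and 303 in intact males, 225, 296 and 278 in castrated males and 153, 229 and 173 in females. It passed in females (log2 difference -1.38 with SE 0.31, adjusted p = 0.0386) and not in castrated males (-0.88 with SE 0.31, adjusted p = 0.16). The collagen isomerase PPIB was 3979.5, 2224 and 1488 in intact males, 1330.0, 1353 and 1096 in castrated males and 898, 1018 and 873 in females, where it fell (log2 difference -1.33 with SE 0.30, adjusted p = 0.0396). Of the 15 tested genes of a list of other ER chaperones and folding enzymes, 0 passed in castrated and 3 fell in female against intact males: PDIA5, SERPINH1 and PPIB. Of all probe sets tested, 0.84% fell in castrated and 3.37% in female against intact males. Among 11 tested ER members, FKBP7 and FKBP11 fell in both contrasts and the other 9 passed in neither.

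Both also fell in yak and buffalo. FKBP7 was 81.8, 67.6 and 139 in yak and 35.0, 54.5 and 65.7 in buffalo (log2 difference -0.88 with SE 0.21, adjusted p = 0.00786 in yak and log2 difference -1.58 with SE 0.21, adjusted p = 4.07e-05 in buffalo). All buffalo were below all cattle, and yak 3 overlapped the castrated males and females. FKBP11 fell with a log2 difference of -0.80 (SE 0.21) in yak and -0.63 (SE 0.21) in buffalo against the mean of the cattle groups. The yak calls of both genes rest on the intact males. Against the castrated males alone the yak values were -0.46 (SE 0.26, adjusted p = 0.244) for FKBP7 and -0.54 (SE 0.26, adjusted p = 0.17) for FKBP11, and against the females alone -0.25 (SE 0.26, adjusted p = 0.552) and -0.07 (SE 0.26, adjusted p = 0.887). In buffalo FKBP7 passed against each cattle group, while FKBP11 passed against the intact males alone: it was -0.37 (SE 0.26, adjusted p = 0.262) against the castrated males and reversed to 0.10 (SE 0.26, adjusted p = 0.784) against the females. Without buffalo 1 FKBP11 was -0.37 (SE 0.21, adjusted p = 0.166). FKBP14 fell in yak (log2 difference -1.05 with SE 0.34, adjusted p = 0.0336), at 68.2, 64.4 and 77.8 and below every cattle array. The call was lost under 8 of 25 alternatives. Among these were leaving out any 1 of the 3 yak, the castrated males or the females alone as the cattle, and quantile normalisation. In buffalo FKBP14 was 40.2, 93.8 and 287, where buffalo 3 exceeded every cattle array and buffalo 1 was below all, and it did not pass. FKBP9 fell in buffalo with a log2 difference of -0.48 (SE 0.13, adjusted p = 0.00613).

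**Figure D4:**
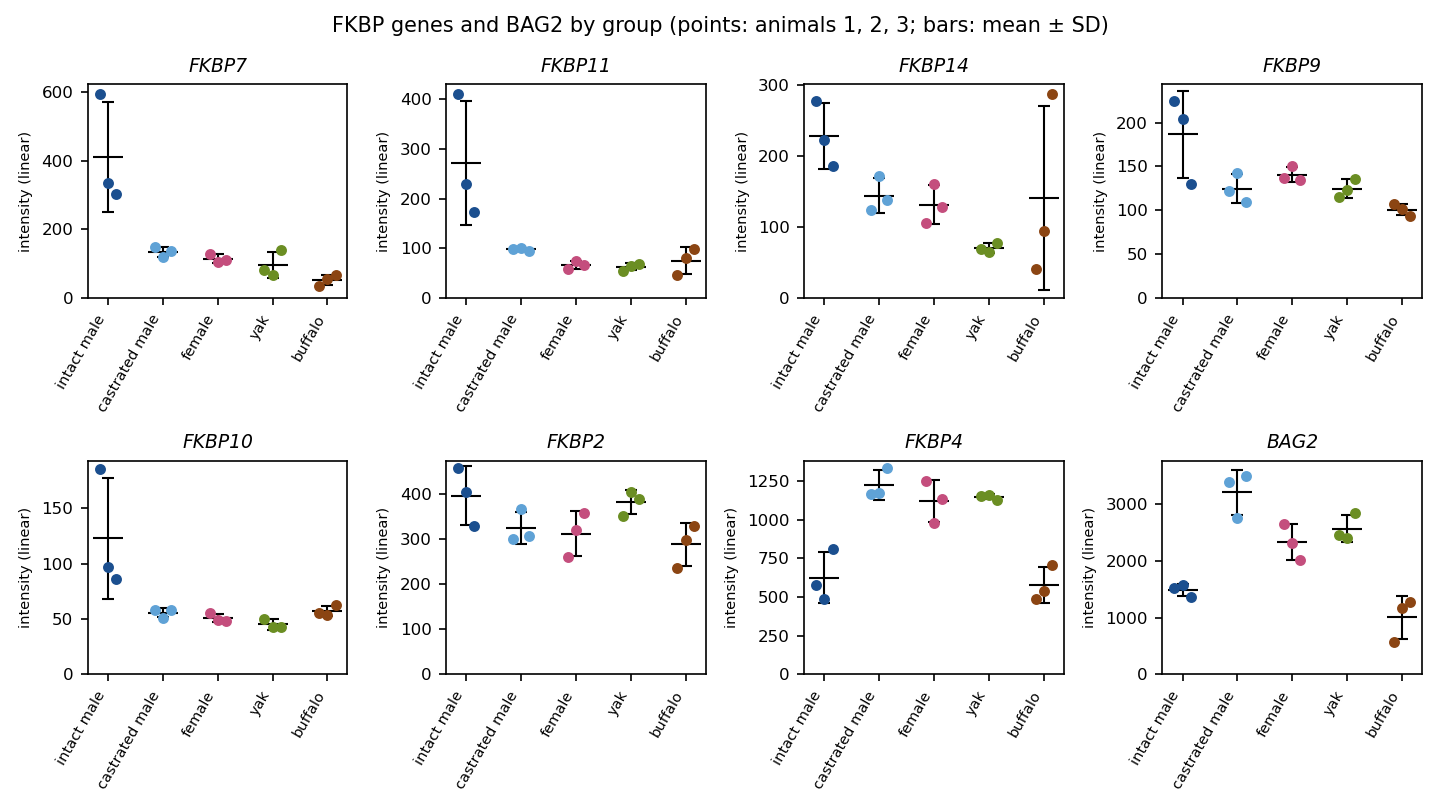
Linear intensity of 7 FKBP members and BAG2 in the 5 groups, with points for animals 1, 2 and 3 from left to right, a line at the mean and bars of ± 1 SD (n = 3). The 3 intact males lie above all other cattle for FKBP7, FKBP11, FKBP14 and FKBP10, and below them for FKBP4 and BAG2.

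The cytosolic and nuclear isomerases differed between species. FKBP3, a nuclear FKBP, was 6954, 6703 and 6366 in yak, above every cattle array (3907 to 5445) and every buffalo (3729, 4315 and 4212). It rose against cattle by 0.54 (SE 0.09, adjusted p = 0.000987) and was the 1 member that passed in yak under every alternative run. FKBP1A, the target of tacrolimus and a stabiliser of the ryanodine receptor of muscle, was 684, 613 and 549 in buffalo and 880.4, 969.5 and 840.4 in yak, and 966 to 2189 in cattle. It fell in both, with a log2 difference of -1.10 (SE 0.16, adjusted p = 9.07e-05) in buffalo, where no array overlapped, and -0.56 (SE 0.16, adjusted p = 0.0189) in yak, where castrated male 3 was the 1 cattle array below the highest yak. The FKBP1A call in yak was lost with the castrated males or the females alone as the cattle. FKBP8, an anchor of the mitochondrial outer membrane, was 1066, 1411 and 1366 in buffalo, above the 620.2 to 915 of cattle (log2 difference 0.74 with SE 0.13, adjusted p = 0.000317).

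Small heat shock proteins held the 3 members with the smallest p between females and castrated males, though 0 of 6 passed within cattle. In yak 1 of the 6 fell, and in buffalo 2 did. HSPB1, which caps actin filaments, was 14074, 13473 and 11081 in castrated males, 6789, 6930.0 and 7122 in females and 10879, 7864 and 7132 in intact males. The difference between females and castrated males was -0.88 (SE 0.15, adjusted p = 0.278). CRYAB, the alpha-B crystallin that binds desmin and titin, was 12432, 12447 and 10677 in castrated males, 8053, 6242 and 7960.0 in females and 11991, 9128 and 9255 in intact males (log2 difference -0.68 with SE 0.14, adjusted p = 0.342 for females against castrated males). HSPB8, the partner of BAG3, was 10056, 9871 and 8892 in castrated males, 6493, 7432 and 6026 in females and 8514, 7258 and 7338 in intact males (log2 difference -0.53 with SE 0.10, adjusted p = 0.342 for females against castrated males). For each of the 3, all females were below all castrated males. Of the 66 members, 21 (31.8%) had no overlap between these 2 groups, in either direction, against 17.5% of all probe sets tested.

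HSPB6 and HSPB2 were set apart in buffalo. HSPB6, a muscle small heat shock protein phosphorylated by protein kinase A, was 441, 500.0 and 839.6 in buffalo, below every cattle array (1474 at the lowest, 1988 at the median and 2705 at the highest) and every yak (1651, 2789 and 2648). The change against cattle was -1.78 (SE 0.22, adjusted p = 1.83e-05), and against yak -1.98 (SE 0.27, adjusted p = 6.65e-05). HSPB2, which binds the myotonic dystrophy kinase, was 823, 955 and 1579 in buffalo and 1464, 1484 and 1817 in yak, all below the 2035 to 2761 of cattle (log2 difference -1.13 with SE 0.15, adjusted p = 4.91e-05 in buffalo and log2 difference -0.58 with SE 0.15, adjusted p = 0.0129 in yak). The HSPB2 call in yak was lost with the castrated males or the females alone as the cattle. HSPB2 and CRYAB lie side by side in the cattle genome, by the current RefSeq gene table. CRYAB was 7209, 12171 and 12511 in buffalo and 8606, 8532 and 7293 in yak and passed in neither (0.11 with SE 0.15 in buffalo and -0.24 with SE 0.15 in yak).

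For HSPB1 and HSPB8 buffalo 1 lay far from the other 2 buffalo. HSPB1 was 6850.2, 14739.6 and 16038, with buffalo 1 inside the range of the females and the other 2 buffalo above every cattle array, and it did not pass (0.37 with SE 0.22). HSPB8 was 3376, 7498 and 7332, with buffalo 1 below every other array of the study. In yak HSPB1 was 12314, 12457 and 8325 and did not pass (0.25 with SE 0.22). HSPB3, a small heat shock protein of muscle that pairs with HSPB2, passed in no contrast. The summed intensity of 8 slow fibre genes was 70024 to 75166 in females and 76048 to 91319 in castrated males. In intact males it was 69123 to 82839, overlapping both. The sum was 52683 to 61651 in yak and 82733 to 87128 in buffalo, and its part in the small heat shock protein values was not tested.

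**Figure D5:**
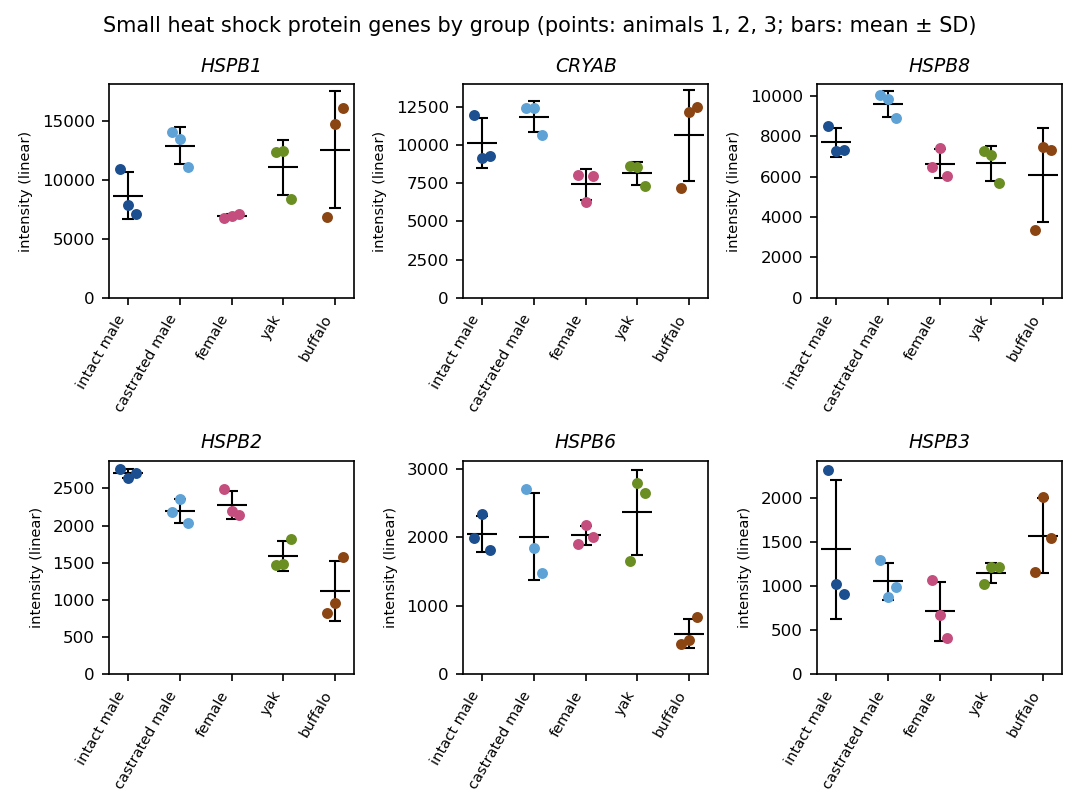
Linear intensity of the 6 small heat shock protein members in the 5 groups, with points for animals 1, 2 and 3 from left to right, a line at the mean and bars of ± 1 SD (n = 3). Castrated males lie above females for HSPB1, CRYAB and HSPB8. Buffalo have the lowest mean for HSPB2, HSPB6 and HSPB8, and buffalo 1 lies below buffalo 2 and 3 in all 6 panels.

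The chaperonins gave few calls. Of 6 CCT subunits, 0 passed within cattle or in yak. In buffalo CCT3 rose (log2 difference 0.53 with SE 0.21, adjusted p = 0.0473) and CCT8 fell (log2 difference -0.46 with SE 0.18, adjusted p = 0.0455). Neither call held throughout: CCT3 was lost under 13 of 26 alternatives, among them without buffalo 2 (0.35) or buffalo 3 (0.42), and CCT8 under 14 of 26, among them without buffalo 1 (-0.26) and with quantile normalisation (-0.14). CCT3 was 1041, 2056 and 1856 in buffalo and 814 to 1553 in cattle. CCT8 was 969.5, 1467 and 1477 in buffalo and 1248 to 2419.6 in cattle. Buffalo 1 was the lowest buffalo for each of the 6 subunits, and 5 of 6 had a mean above that of cattle. CCT2, CCT4, CCT5 and CCT6A did not pass. Females were lower than castrated males on average for 6 of 6 subunits, with a median of -0.49, and none passed. HSPD1 and HSPE1, the mitochondrial HSP60 and its lid, lie side by side in the genome and passed in no contrast. HSPD1 was 2715 ± 1029 in intact males, 2598 ± 231 in castrated males, 2097 ± 134 in females, 2706 ± 135 in yak and 2367 ± 639 in buffalo.

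Regulators and partners outside the rule were read from lists of other pathway genes. HSF1, the factor that switches on heat shock genes, was 287, 272 and 329 in buffalo against 694, 714 and 708 in yak, and fell against cattle (log2 difference -1.09 with SE 0.18, adjusted p = 0.00028). Intact male 1, at 332, was close to buffalo. HSF2, a second factor, rose in buffalo (log2 difference 1.04 with SE 0.19, adjusted p = 0.000497). HSF4, another, rose in yak (log2 difference 1.17 with SE 0.18, adjusted p = 0.00043). Of 5 tested heat shock factors and regulators, 2 rose and 1 fell in buffalo and 1 rose in yak. For this and the next lists, 23% of all probe sets tested rose and 28.4% fell in buffalo, and 13.2% rose and 15.9% fell in yak.

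Of 26 tested cytosolic chaperones and co-chaperones outside the rule, 3 rose and 9 fell in buffalo, and 6 rose and 1 fell in yak; 0 passed within cattle. VBP1, a prefoldin subunit that hands actin to CCT, fell in buffalo with a log2 difference of -1.33 (SE 0.13, adjusted p = 3.13e-06), and PFDN4, another, rose by 0.98 (SE 0.12, adjusted p = 2.84e-05). The ubiquitin ligase STUB1, which marks HSP70 and HSP90 clients for destruction, fell with a log2 difference of -0.99 (SE 0.15, adjusted p = 0.000104), and CDC37, which loads kinases onto HSP90, with a log2 difference of -0.63 (SE 0.10, adjusted p = 0.000173). UNC45B, the myosin chaperone of muscle, rose in yak (log2 difference 0.79 with SE 0.19, adjusted p = 0.00778) and in buffalo (log2 difference 0.56 with SE 0.19, adjusted p = 0.0234). SUGT1, an HSP90 co-chaperone, rose in yak by 0.78 (SE 0.15, adjusted p = 0.00203).

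In the ER list 7 of 15 fell in buffalo and 3 in yak, against 28.4% and 15.9% of all probe sets, and 0 rose in either. CALR, the calcium-binding lectin chaperone, was 145, 121 and 113 in buffalo, below every other array (log2 difference -2.27 with SE 0.23, adjusted p = 3.32e-06), and fell in yak with a log2 difference of -0.65 (SE 0.23, adjusted p = 0.0446). HYOU1, the HSP110 of the ER, passed in no contrast. In the mitochondrial list, GRPEL1, the exchange factor of HSPA9, fell in buffalo with a log2 difference of -0.98 (SE 0.10, adjusted p = 4.3e-06), while HSPA9 itself rose as given above; in all, 1 of 9 rose and 2 fell. TRAP1, the mitochondrial HSP90, rose in yak by 0.40 (SE 0.13, adjusted p = 0.0349).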

How the data were processed

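The authors deposited 1 table of probe set intensities on a linear scale for 15 Affymetrix bovine arrays with 24128 probe sets, from frozen muscle extracted with Trizol, per the labels' protocols. For the background correction, summary and normalisation behind the intensities, nothing is given in the sources used here. Without the 112 control probe sets, 16 was added before log2, and only probe sets whose mean exceeded the 40th percentile (6.42) were kept, 14409 of 24016. The number of arrays limits the precision.

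Linear models were fitted with limma 3.58.1 in R 4.3.3 (empirical Bayes with an intensity trend). Contrasts among cattle used the 9 cattle arrays; those between species used all 15, the cattle side being the average over its 3 groups. The steps were tested on simulated data. The smallest p of an exact permutation test with 3 animals a group is 0.1.

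The symbols come from the platform annotation, and 70 of 71 members matched the current RefSeq table by identifier, with 0 changed. Of the members, 21 have several probe sets. The members, families and lists were chosen with earlier results of these data known. Named are members that passed in any contrast, the 3 brightest of each family, the 3 with the smallest p where under 3 passed, up to 4 called genes of each other list by p, and SERPINH1, HSF1, UNC45B and HYOU1; genes outside this rule that the text names, such as FKBP10, COL1A1, PI16 and SPP1, were chosen after their values were seen.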

Additional observations from a re-analysis of the deposited data

How the results depend on the processing

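Counts of members called were recomputed with 1 or 64 added before log2, no filter on dim probe sets or one at the 60th percentile, quantile normalisation, median centring, no intensity trend, array weights, a replicate block, the mean of a gene's probe sets, another set of arrays in the fit, 1 cattle group in place of 3 and each array left out. For castrated against intact males (4 as reported) the count was 2 without the filter, 2 with the filter at the 60th percentile and 21 with array weights. For females against intact males (4) it was 2 at the 60th percentile and 19 with array weights, and for females against castrated males (0) it was 1 with array weights, whose estimation stopped before it converged. For yak against cattle (14) it was 23 with array weights, 5 with castrated males alone and 3 with females alone. Leaving out 1 array gave 0 to 6, 1 to 11, 0 to 0 and 1 to 16 in these 4 contrasts, 26 to 34 in buffalo against cattle and 21 to 29 in buffalo against yak. With the replicate block the 6 counts were 2, 3, 0, 12, 29 and 27. The labels share replicate numbers between groups, but the 30 same-numbered pairs of arrays had a median correlation of deviations of 0.00105, from -0.326 to 0.145, with 6 over 0.1, so the numbers were not taken to pair animals. In the contrasts with buffalo every other setting kept the count within 1.5 times. The members that passed in every setting in which they were tested were 0 of 4, 1 of 4 (FKBP7), 1 of 14 (FKBP3), 16 of 31 and 17 of 28. FKBP7 and DNAJC27, which are among these, were too dim to test with the filter at the 60th percentile. The sign reversed for HSP90AA1 in yak against cattle with the mean of its probe sets (0.11) and for FKBP11 in buffalo against cattle with females alone (0.10), and the cause was not tested. Signal over background limits BAG4, DNAJC6, DNAJC22, FKBP10 and HSPBAP1, which are too dim to test.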

Other observations

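The members that were too dim to test were read as values alone. HSPBAP1, which binds HSPB1, was 128, 123 and 77.6 in yak and 38.1 to 52.0 in cattle, with 68.4, 73.5 and 80.0 in buffalo, so all yak and all buffalo lay above all cattle. BAG4, an anti-apoptotic HSP70 cofactor, was 25.9, 29.9 and 21.4 in buffalo against 40.2 to 62.4 in cattle and 49.4, 41.8 and 41.3 in yak. DNAJC6 and DNAJC22 ran from 24.3 to 41.2 and 36.7 to 52.2 in cattle.

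A list of genes known to respond to glucocorticoids or androgens was read beside FKBP5 and FKBP4. In yak against cattle 5 of its 10 tested genes rose and 1 fell, against 13.2% and 15.9% of all probe sets tested. KLF15 was 1125, 961 and 778 in yak, against 180.4, 242 and 295 in intact males, 514, 421 and 336 in castrated males and 353, 403 and 329.9 in females (log2 difference 1.48 with SE 0.26, adjusted p = 0.0012). CEBPD rose by 1.92 (SE 0.35, adjusted p = 0.00152), at 8020.1, 6737 and 5281. FKBP5 itself did not pass in yak, at 113, 117 and 89.1 (log2 difference 0.08 with SE 0.13, adjusted p = 0.676). In castrated against intact males 0 of the 10 passed. In females against intact males 2 fell, CRISPLD2 and MT2A, with -1.23 (SE 0.24) and -2.21 (SE 0.44), against 3.37% of all probe sets tested. The list's median there was -0.54. In buffalo against cattle 0 rose and 1 fell, against 23% and 28.4% of all probe sets tested.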
